A study of Mus musculus with 2 samples.

Results

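Neurexins, neuroligins and leucine-rich repeat transmembrane (LRRTM) proteins are adhesion proteins that meet across the synaptic cleft. The genes described were the neurexin genes Nrxn2 and Nrxn3, the neuroligin genes Nlgn1, Nlgn2 and Nlgn3, and the LRRTM genes Lrrtm1, Lrrtm2, Lrrtm3 and Lrrtm4. They were chosen by name, 9 of the 43346 Ensembl genes measured, and all 9 were found, each on 1 identifier. The RNA came from midbrain tissue at embryonic day 16.5 of mouse strain B6NCrl, with no treatment or altered allele stated, and was sequenced as total RNA. The single group held 2 libraries, biological replicates 1 and 2, each from pooled embryos of mixed sex and with the same donor identifier. Replicate 2 pooled 37 embryos, and the labels give no such number for replicate 1. The labels call the libraries biological replicates and do not say from which litters they came. Because there is 1 group, no test between conditions was possible. A mean is followed by ± and the SD of both libraries (n = 2). Levels are in TPM, a transcript abundance that is corrected for length and sums to a fixed total per library.

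Neurexins sit in the presynaptic membrane. Each neurexin gene makes a long alpha form and a short beta form from separate start sites, and alternative exons vary the outer part of both. Neuroligins and LRRTMs are postsynaptic ligands of neurexins: Nlgn1 is found mainly at excitatory synapses, Nlgn2 at inhibitory synapses and Nlgn3 at both, and LRRTMs are found mainly at excitatory synapses. Inclusion of the neurexin exon at splice site 4 blocks binding of the proteins of Lrrtm1 and Lrrtm2 and allows binding of cerebellins. An insert at splice site B of neuroligin-1 narrows its binding to beta-neurexins. In the embryonic midbrain most neurons are newly formed and synapse formation is at an early stage.

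The alternative exons are shown first because the transcript shares described further on turn on them. Capitals mark the alternative piece and lower case the 12 transcript bases on each side, in the sense of the transcript. Sequences are from GENCODE M21 transcripts on GRCm38. The lower-case bases belong to the neighbouring exons, except those left of the 27-base piece of Nlgn1. That piece is the end of a longer exon, and its left flank lies in the same exon. The 90-base exon is that of splice site 4, the 60-base and 51-base exons lie at the neuroligin splice site A, and the 27-base piece of Nlgn1 is its splice site B insert. The 90-base exon of Nrxn3 lies on the plus strand at chr12:90199147-90199236. The Nlgn1 pieces lie on the minus strand at chr3:25920178-25920237 and chr3:25439865-25439891, and the Nlgn2 exon on the minus strand at chr11:69830563-69830613. The Nlgn3 exons lie on the plus strand at chrX:101303072-101303131 (upstream) and chrX:101307075-101307134 (downstream).
Nrxn3, 90 bases: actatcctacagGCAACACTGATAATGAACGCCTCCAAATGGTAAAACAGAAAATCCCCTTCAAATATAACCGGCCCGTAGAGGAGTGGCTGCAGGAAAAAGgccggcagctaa
Nlgn1, 60 bases: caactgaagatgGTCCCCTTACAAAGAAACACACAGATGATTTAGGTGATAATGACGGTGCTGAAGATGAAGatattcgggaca
Nlgn1, 27 bases: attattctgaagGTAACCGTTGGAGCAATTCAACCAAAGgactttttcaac
Nlgn2, 51 bases: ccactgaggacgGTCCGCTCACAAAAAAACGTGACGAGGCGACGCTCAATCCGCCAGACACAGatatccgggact
Nlgn3 upstream, 60 bases: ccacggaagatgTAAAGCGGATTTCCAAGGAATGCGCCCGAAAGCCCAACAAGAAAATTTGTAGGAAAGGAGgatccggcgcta
Nlgn3 downstream, 60 bases: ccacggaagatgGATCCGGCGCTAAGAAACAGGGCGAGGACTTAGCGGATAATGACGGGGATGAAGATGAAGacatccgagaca

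Aligned base by base, the 60-base exon of Nlgn1 shared 43 of 60 bases (71.7%) with the downstream exon of Nlgn3 and 16 of 60 (26.7%) with the upstream one. The upstream and downstream exons of Nlgn3 shared 19 of 60 bases.

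The short forms of Nrxn3 begin at a start site of their own, far inside the gene. Its upstream 250 bases are shown because the split between long and short forms is one of the quantities described. They lie on the plus strand at chr12:89812233-89812482 of GRCm38, from the RefSeq promoter table (GRCm38.p6), and capitals mark CG dinucleotides.
Nrxn3 short-form start: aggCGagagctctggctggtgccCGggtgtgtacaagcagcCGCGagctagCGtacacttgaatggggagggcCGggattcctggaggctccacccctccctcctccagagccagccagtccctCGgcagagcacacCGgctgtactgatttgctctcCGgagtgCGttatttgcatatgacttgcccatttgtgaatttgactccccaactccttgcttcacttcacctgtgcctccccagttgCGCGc

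This window had a GC content of 60% and 12 CG dinucleotides, against medians of 52.4% and 6 over the 32851 promoters of the same length in that table. The GC box GGGCGG did not occur in it on either strand and occurred in 32.7% of all promoters. The same held for the TATA box TATAAA (12.4% of all promoters), for the CCAAT box (33.8%) and for the E-box CACGTG (6.02%). The RefSeq table also lists the start of Nrxn3-205, the leading long form. The base after that window begins an exon that lies inside 5 other annotated Nrxn3 transcripts, so the window is not shown as a promoter. Its GC content was 45.6% and it held 2 CG dinucleotides. The table held no window for Nrxn2 or Lrrtm2.

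All 9 genes were well above detection. Each reached at least 10 TPM in both libraries, whereas 41.2% of the 21474 protein-coding genes did so and 62.1% reached 1 TPM. The members' median was 28.4 TPM, with library medians of 25.7 in replicate 1 and 31.5 in replicate 2. The median over all protein-coding genes was 5.29 TPM, and over those at 1 TPM or more in both libraries 20.3. The 9 means lay between percentiles 60.3 and 89.1 of protein-coding genes, and their sum was 322 TPM in replicate 1 and 350.0 TPM in replicate 2. The smallest expected count, the 1089 reads of Lrrtm4 in replicate 1, had an exact 95% Poisson interval of 1025 to 1156. Counting error of the read total was therefore small for every member. The interval does not cover the TPM of Nrxn2, much of which came from a short transcript with few reads, described further on.

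Among the neurexins, Nrxn3 (ENSMUSG00000066392.7, chromosome 12, 88722876 to 90334935, plus strand) was at 67.5 TPM in replicate 1 and 71.5 TPM in replicate 2. Nrxn2 (ENSMUSG00000033768.12, chromosome 19, 6418731 to 6544169, plus strand) was at 25.4 TPM in replicate 1 and 31.5 TPM in replicate 2. Both Nrxn3 values stood far above both Nrxn2 values. Nrxn3 averaged 69.5 ± 2.84 TPM and Nrxn2 28.4 ± 4.33 TPM, a 2.46-fold ratio (log2 1.30 ± 0.162). From protein-coding transcripts alone, the log2 ratio of Nrxn3 over Nrxn2 was 1.85 ± 0.00344.

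Among the neuroligins, Nlgn3 (ENSMUSG00000031302.12, chromosome X, 101299168 to 101325963, plus strand) was the highest of the 9 genes, at 75.6 TPM in replicate 1 and 77.7 TPM in replicate 2. Nlgn1 (ENSMUSG00000063887.9, chromosome 3, 25426215 to 26332460, minus strand) was at 25.7 TPM in replicate 1 and 28.6 TPM in replicate 2. Nlgn2 (ENSMUSG00000051790.11, chromosome 11, 69823122 to 69837784, minus strand), the neuroligin of inhibitory synapses, was at 17.4 TPM in replicate 1 and 17.9 TPM in replicate 2. The libraries lay close together for each of these genes, and the ranges of the neuroligin genes did not overlap. The means were 76.7 ± 1.48 TPM for Nlgn3, 27.2 ± 2.01 TPM for Nlgn1 and 17.7 ± 0.339 TPM for Nlgn2.

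Among the LRRTM genes, Lrrtm1 (ENSMUSG00000060780.2, chromosome 6, 77242689 to 77257791, plus strand) was highest, at 44.9 TPM in replicate 1 and 50.6 TPM in replicate 2. Lrrtm3 (ENSMUSG00000042846.8, chromosome 10, 63928472 to 64090277, minus strand) followed at 35.2 TPM in replicate 1 and 42.6 TPM in replicate 2. Lrrtm4 (ENSMUSG00000052581.9, chromosome 6, 80018877 to 80810143, plus strand), whose protein also binds heparan sulphate proteoglycans, was at 18.15 TPM in replicate 1 and 18.17 TPM in replicate 2. Lrrtm2, a ligand that competes with neuroligins for neurexins, was the lowest of the 9 genes, at 12.4 TPM in replicate 1 and 11.5 TPM in replicate 2, and the only one with the higher TPM in replicate 1. The means were 47.8 ± 4.02 TPM for Lrrtm1, 38.9 ± 5.24 TPM for Lrrtm3, 18.2 ± 0.0141 TPM for Lrrtm4 and 11.9 ± 0.686 TPM for Lrrtm2.

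From high to low the order of mean TPM was Nlgn3, Nrxn3, Lrrtm1, Lrrtm3, Nrxn2, Nlgn1, Lrrtm4, Nlgn2 and Lrrtm2. Neighbours in this order had values that did not overlap between the libraries, except Nrxn2 and Nlgn1, whose ranges overlapped. With 2 libraries, ranges that do not overlap are a description and not a test. Lrrtm4 and Nlgn2 differed by 1.03-fold and Nlgn3 and Nrxn3 by 1.103-fold, so these neighbours were close in level.

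**Figure D1:**
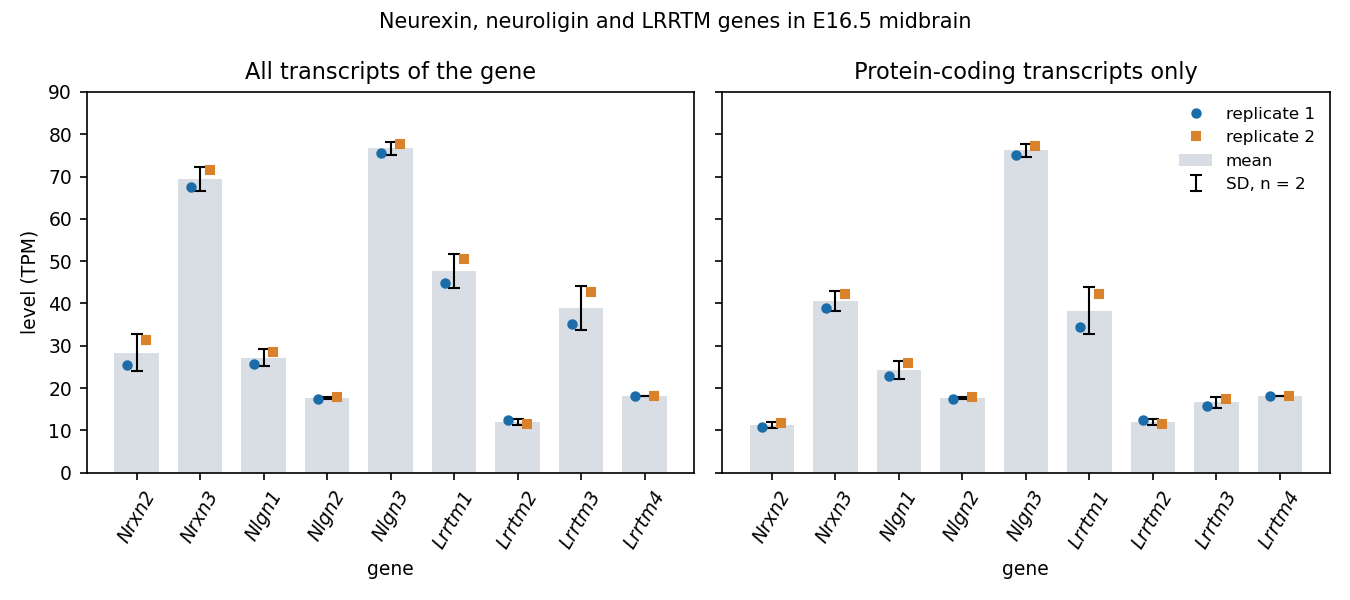
Level of each gene in TPM, from all its transcripts (left) and from its protein-coding transcripts alone (right). Bars are means, error bars the SD (n = 2) and points the libraries. Nlgn3 is highest in both panels, at 76.7 and 76.2 TPM, whereas Nrxn3, Lrrtm3 and Nrxn2 are lower in the right panel, at 40.5, 16.6 and 11.3 TPM.

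How much of each level came from protein-coding transcripts differed widely among the genes. The protein-coding share of TPM was 40.0% ± 3.67 in Nrxn2, 42.8% ± 2.42 in Lrrtm3, 58.3% ± 1.03 in Nrxn3 and 80.1% ± 4.92 in Lrrtm1. It was 89.8% ± 1.17 in Nlgn1 and 99.4% ± 0.169 in Nlgn3, and the whole TPM in Nlgn2, Lrrtm2 and Lrrtm4 within the rounding of the files. Both neurexin genes and Lrrtm3 thus had the lowest shares, with no overlap with the neuroligin genes in either library. Over the 8 members with at least 2 transcripts the median share was 84.9%, against 91.0% over the 8248 genes with several transcripts that reached 5 TPM in both libraries. Counting protein-coding transcripts alone, the order of means was Nlgn3 (76.2 TPM), Nrxn3 (40.5), Lrrtm1 (38.3), Nlgn1 (24.4), Lrrtm4 (18.2), Nlgn2 (17.7), Lrrtm3 (16.6), Lrrtm2 (11.9) and Nrxn2 (11.3). In that order Nrxn3 overlapped Lrrtm1, Nlgn2 overlapped Lrrtm3 and Lrrtm2 overlapped Nrxn2.

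Summed over its genes, the neuroligin family reached 118.8 TPM in replicate 1 and 124.2 TPM in replicate 2. The LRRTM family summed to 110.7 TPM in replicate 1 and 122.8 TPM in replicate 2, and Nrxn2 and Nrxn3 together to 92.8 TPM in replicate 1 and 103.0 TPM in replicate 2. These 2 genes are not the whole neurexin family, of which no other gene was analysed here, so the ratios that follow do not compare neuroligins with all neurexins. Neuroligins stood above Nrxn2 and Nrxn3 by log2 0.31 ± 0.0602 (121 ± 3.83 against 97.9 ± 7.16 TPM). Neuroligins and LRRTMs were nearly level, with a log2 ratio of 0.06 ± 0.0607 (121 ± 3.83 against 117 ± 8.58 TPM), a difference no larger than the spread between the libraries. From protein-coding transcripts alone the gaps were wider: neuroligins at 118 ± 4.06 TPM stood above Nrxn2 and Nrxn3 at 51.8 ± 3.05 TPM by log2 1.19 ± 0.0356, and above LRRTMs at 85.0 ± 6.20 TPM by log2 0.48 ± 0.0558. In bulk tissue, fewer cells of a type and less RNA per cell cannot be told apart, so none of these levels is a level per neuron.

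The neurexin forms were divided by coding length: long forms are protein-coding transcripts with at least 3000 coding bases, and short forms the protein-coding transcripts below that. Long forms of Nrxn3 were at 18.97 TPM in replicate 1 and 19.07 TPM in replicate 2, and its short forms at 19.88 TPM in replicate 1 and 23.13 TPM in replicate 2. Long forms of Nrxn2 were at 4.90 TPM in replicate 1 and 5.60 TPM in replicate 2, and its short forms at 5.89 TPM in replicate 1 and 6.16 TPM in replicate 2. With this division the short forms were slightly above the long forms in both genes and both libraries. The short class of Nrxn2 includes Nrxn2-209, at 0.69 TPM in replicate 1 and 0.74 TPM in replicate 2. It is a model of 648 bases marked in the annotation as incomplete at both ends. Without it the short forms of Nrxn2 would be below the long forms in replicate 2. A division by start site counts it as long. Divided by start site instead, long forms of Nrxn2 were above its short forms in both libraries, at 22.0% and 20.5% of gene TPM in replicate 1 and 20.1% and 17.2% in replicate 2, whereas Nrxn3 was unchanged. The log2 ratio of long over short was -0.17 ± 0.149 for Nrxn3 and -0.20 ± 0.0905 for Nrxn2, which is near the spread between the libraries for Nrxn3.

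As a share of the TPM of the gene, long forms made 27.4% ± 1.01 of Nrxn3 and 18.5% ± 1.03 of Nrxn2. Short forms made 30.9% ± 2.05 of Nrxn3 and 21.4% ± 2.61 of Nrxn2. The rest, 41.7% ± 1.03 of Nrxn3 and 60.04% ± 3.64 of Nrxn2, lay on transcripts not annotated as protein-coding. Within the protein-coding part, the long share was alike in both genes, 47.0% ± 2.57 in Nrxn3 and 46.5% ± 1.65 in Nrxn2. Long transcripts collect more reads per molecule, and as a share of expected counts the long forms came to 48.7% ± 1.95 in Nrxn3 and 48.5% ± 1.38 in Nrxn2. In counts the long forms exceeded the short forms in both genes, by log2 1.03 ± 0.128 in Nrxn3 and 0.81 ± 0.114 in Nrxn2, so the sign of the ratio depends on whether length is corrected for.

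**Figure D2:**
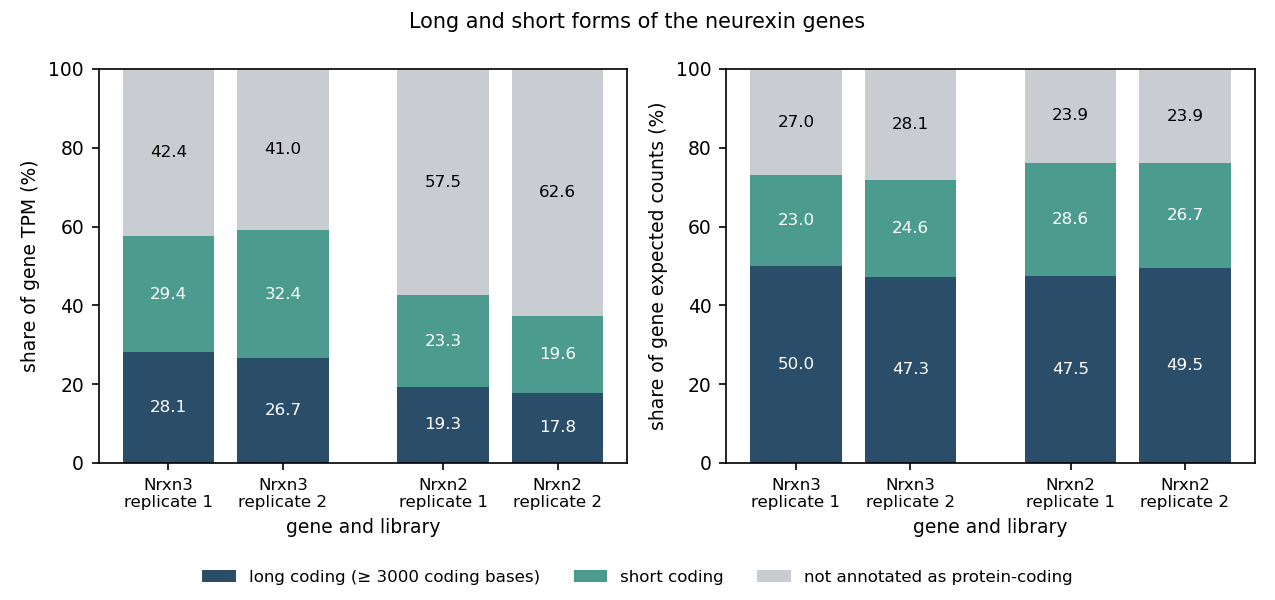
Share of Nrxn3 and Nrxn2 on long coding, short coding and other transcripts in each library, as a percent of TPM (left) and of expected counts (right). Transcripts not annotated as protein-coding hold 41.7% (Nrxn3) and 60.04% (Nrxn2) of TPM on average, but 27.5% and 23.9% of expected counts.

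Single transcripts stood behind these shares. Nrxn3-205, with 4713 coding bases in 20 exons, made 26.3% of Nrxn3 TPM in replicate 1 and 24.4% in replicate 2, nearly all of the long class. Of the short forms, Nrxn3-202 made 21.5% in replicate 1 and 20.4% in replicate 2, and Nrxn3-203, which lacks the 90-base exon, 7.91% in replicate 1 and 11.9% in replicate 2. Nrxn3-204, a retained-intron transcript of 2278 bases, was nearly as high as the leading long form, at 25.5% in replicate 1 and 24.3% in replicate 2. The order of these 4 transcripts was the same in both libraries.

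In Nrxn2 the leading transcript was Nrxn2-213, annotated as a processed transcript, of 576 bases. It made 40.2% of TPM in replicate 1 and 49.3% in replicate 2, but rested on 90.02 expected counts in replicate 1 and 160 in replicate 2. These were 7.71% and 10.5% of the expected counts of the gene. The level of Nrxn2 therefore depended strongly on a short transcript with few reads, and its protein-coding part came to 10.8 TPM in replicate 1 and 11.8 TPM in replicate 2. Nrxn2-202, its leading coding transcript and a short form, made 19.9% of TPM in replicate 1 and 17.0% in replicate 2, and the long form Nrxn2-208 made 7.99% in replicate 1 and 6.32% in replicate 2. Estimates of further long forms were unlike in the libraries. Nrxn2-201 made 6.57% in replicate 1 and 1.51% in replicate 2, and Nrxn2-205 3.54% in replicate 1 and 7.77% in replicate 2. The deposited credibility bounds of Nrxn2-201 were 0.0994 to 2.24 TPM in replicate 1 and 0.000367 to 1.87 TPM in replicate 2. Those of Nrxn2-205 were 0.00641 to 2.21 TPM in replicate 1 and 0.453 to 3.47 TPM in replicate 2. The bounds overlapped for each form, so a difference between the libraries was not resolved. The sum of all long forms moved little.

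Transcripts with the 90-base exon of splice site 4 were in the majority in both neurexin genes. In Nrxn3 they made 85.7% of the TPM of transcripts that span the site in replicate 1 and 80.3% in replicate 2 (83.0% ± 3.80). In Nrxn2 they made 95.3% in replicate 1 and 93.1% in replicate 2 (94.2% ± 1.59). The share was higher in Nrxn2 than in Nrxn3 in both libraries. Among the short forms alone, the exon was carried by 73.1% in replicate 1 and 63.1% in replicate 2 of Nrxn3, and by 97.7% ± 1.40 of Nrxn2. The skipped part of Nrxn3 thus lay largely on the short form Nrxn3-203. These shares rest on reads assigned to whole annotated transcripts, and the number of reads across the exon itself was not measured. Every long form of Nrxn3 in the catalogue carries the exon, and Nrxn2-204 is the only long form of Nrxn2 without it. The share among long forms is therefore largely set by the catalogue.

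Further exons of Nrxn3 differed in use. A 27-base exon at chr12:89354453-89354479 was in 86.0% ± 3.57 of the TPM of the transcripts that span it. The only transcript without it is Nrxn3-208, annotated for nonsense-mediated decay. A 27-base exon at chr12:89517906-89517932 was in 9.27% ± 0.754. In Nrxn2 a 27-base exon at chr19:6488784-6488810 was in 90.8% ± 4.38, from transcripts that summed to less than 6 TPM. Its only transcript without the exon is Nrxn2-204, which also lacks the 90-base exon.

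The share of TPM on transcripts with a splice site A exon differed among the neuroligin genes. These shares depend on the annotated transcripts and on the length correction, so they are not a measure of exon use alone. Nlgn2 transcripts with the 51-base exon made 99.3% in replicate 1 and 100% in replicate 2. The only Nlgn2 transcript without it is an incomplete model, so this share is largely set by the catalogue. Nlgn1 was evenly divided in TPM: transcripts with the 60-base exon made 51.5% in replicate 1 and 46.0% in replicate 2 (48.7% ± 3.89). The 27-base insert of splice site B was in the same transcripts as the 60-base exon and had the same share, so both inserts cannot be told apart in Nlgn1 with this catalogue. Of the Nlgn1 forms, Nlgn1-205, of 11807 bases and with both inserts, made 45.8% of TPM in replicate 1 and 41.6% in replicate 2. Nlgn1-203, of 3013 bases and with neither, made 43.2% in replicate 1 and 49.0% in replicate 2, so the leading form was not the same in both libraries. In expected counts Nlgn1-205 held 76.8% in replicate 1 and 73.8% in replicate 2. The forms also differ in length beyond the coding part, and the share of the inserts follows that of these whole transcripts.

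Nlgn3 transcripts with the downstream 60-base exon made 67.4% of the TPM of those that span it in replicate 1 and 70.7% in replicate 2 (69.05% ± 2.38). Those with the upstream exon made 9.54% in replicate 1 and 10.5% in replicate 2. Nlgn3-201, with the downstream exon and not the upstream one, made 48.2% of the TPM of Nlgn3 in replicate 1 and 56.7% in replicate 2, and Nlgn3-206, with both exons, 9.47% in replicate 1 and 10.4% in replicate 2. The form without either, Nlgn3-203, made 32.4% in replicate 1 and 29.1% in replicate 2. It is a model of 1852 bases marked in the annotation as incomplete at its end, and it held 9.26% of expected counts in replicate 1 and 7.98% in replicate 2. Nlgn3-202, a coding form with the downstream exon alone, made 9.22% of TPM in replicate 1 and 3.30% in replicate 2. Its credibility bounds overlapped, at 3.35 to 9.82 TPM in replicate 1 and 1.06 to 5.59 TPM in replicate 2.

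**Figure D3:**
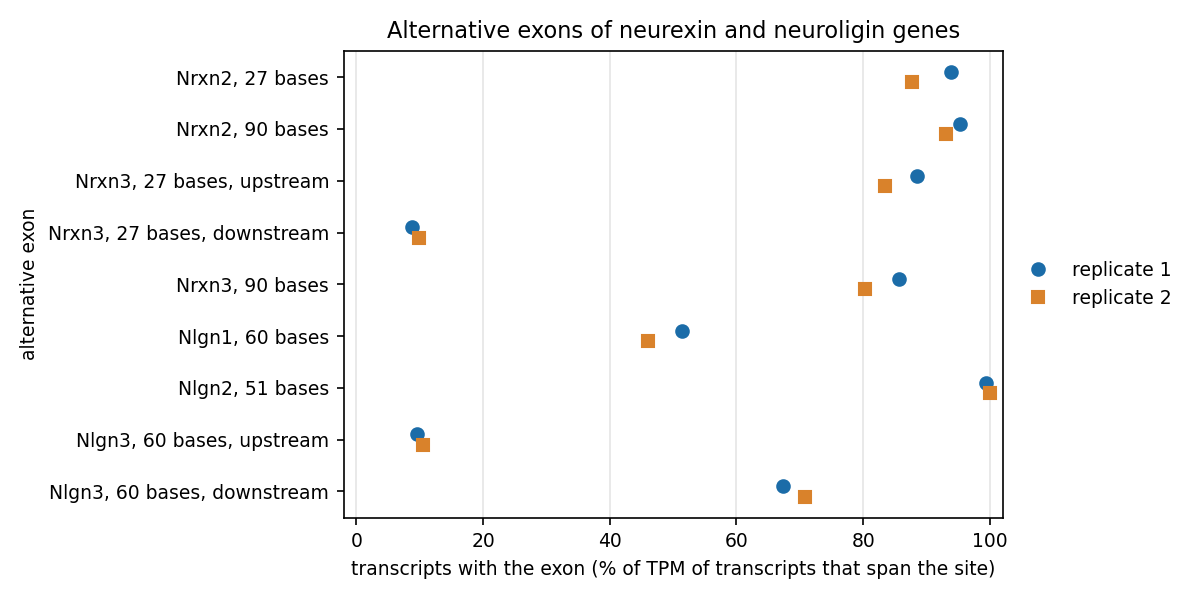
Share of TPM on transcripts with each alternative exon, among transcripts that span it, in replicate 1 (circles) and replicate 2 (squares). The exons of 90 bases in Nrxn2 and Nrxn3 lie above 80%, Nlgn1 is near the middle at 46.0% to 51.5%, and the upstream Nlgn3 exon is at 9.54% to 10.5%.

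Nlgn2 was divided between transcripts with different first exons and the same coding length of 2508 bases. Nlgn2-201 made 52.1% of TPM in replicate 1 and 65.2% in replicate 2, and Nlgn2-202 made 47.2% in replicate 1 and 34.9% in replicate 2. The share of Nlgn2-201 was higher in replicate 2, while the level of the gene was nearly the same in both libraries.

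The LRRTM genes have few exons, and their transcripts differed mainly at the ends. Lrrtm1-202 and Lrrtm1-203, both with 1566 coding bases, made 54.5% and 22.1% of Lrrtm1 TPM in replicate 1 and 57.8% and 25.8% in replicate 2. Lrrtm1-201, annotated for nonsense-mediated decay with the same coding length, made 23.4% in replicate 1 and 16.4% in replicate 2. Lrrtm2 had 1 transcript, Lrrtm2-201, with 1545 coding bases. In Lrrtm3 a retained-intron transcript of 2425 bases led, Lrrtm3-204, at 52.7% of TPM in replicate 1 and 51.6% in replicate 2. The coding Lrrtm3-201 followed at 44.5% in replicate 1 and 41.1% in replicate 2.

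Lrrtm4 was spread over the largest number of coding transcripts. Lrrtm4-206 made 39.2% of TPM in replicate 1 and 39.8% in replicate 2, and Lrrtm4-201 made 22.4% in replicate 1 and 25.1% in replicate 2. Both end in the second exon. Transcripts that reach a distant last exon, with up to 1773 coding bases against up to 1557 in the others, made 17.6% of Lrrtm4 TPM in replicate 1 and 21.4% in replicate 2. The largest of them, Lrrtm4-208, made 13.7% in replicate 1 and 17.3% in replicate 2. Lrrtm4-202 made 6.67% in replicate 1 and 5.98% in replicate 2, and the short, incomplete model Lrrtm4-204 made 9.60% in replicate 1 and 5.15% in replicate 2 from 13.1 and 8.22 expected counts. Across the members with at least 2 transcripts, the leading transcript was the same in both libraries in 7 of 8, against 92.6% of 8248 genes.

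Some members share sequence or position with other genes. Of the 31-base words of Nlgn3, 41.8% also occur in transcripts of another gene, mainly Gm21986 on the same strand, which shares 3823 exon bases and held 85.0 expected counts in replicate 1 and 94.6 in replicate 2, against 8580 and 10713 of Nlgn3. The share was 24.5% in Lrrtm4, mainly with the antisense gene Gm4409 (0 and 12.3 expected counts), and 9.01% in Nlgn1, mainly with the antisense gene A830092H15Rik (39.6 and 40.9). It was at most 5.93% in the other members. Reads of such pairs cannot be told apart with certainty, and for antisense partners the sources used here do not state whether counting used strand.

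Lrrtm1, Lrrtm2 and Lrrtm3 lie on the opposite strand within genes of alpha-catenins, which link cadherins to actin. The host of Lrrtm1, Ctnna2, the neural alpha-catenin, was at 134 TPM in replicate 1 and 122 TPM in replicate 2. Ctnna1, the host of Lrrtm2, was at 29.1 TPM in replicate 1 and 27.7 TPM in replicate 2. Ctnna3, the host of Lrrtm3, was below 1 TPM in both libraries, at 0.850 and 0.810 from 18 and 26 expected counts, while Lrrtm3 itself was at 35.2 TPM in replicate 1 and 42.6 TPM in replicate 2. The order of the nested genes therefore did not follow that of their hosts.

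The other genes of the pathway were taken from a list of 65 partner genes in 6 roles. Of these, 64 reached 1 TPM in both libraries and 52 reached 10 TPM, with a median of 30.2 TPM. Over all protein-coding genes the shares were 62.1% and 41.2%, which also stand beside the counts by role that follow. The list was chosen with earlier results of these data known, so its counts are a description of the list. Only Nxph2, a secreted neurexin ligand, was below 1 TPM in both, at 0.650 TPM in replicate 1 and 0.410 TPM in replicate 2.

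Of 16 other neurexin ligands, 12 reached 10 TPM. Cbln2, a cerebellin that binds neurexins with the splice site 4 exon, was highest at 161 TPM in replicate 1 and 140 TPM in replicate 2. Clstn3, a calsyntenin, was at 128 TPM in replicate 1 and 153 TPM in replicate 2, and Igsf21, a ligand at inhibitory synapses, at 96.6 TPM in replicate 1 and 99.6 TPM in replicate 2. Each of these exceeded every neurexin, neuroligin and LRRTM gene described in both libraries.

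Of 11 scaffold and regulator genes on the neuroligin side, 8 reached 10 TPM. Gphn, the gephyrin scaffold of inhibitory synapses, was at 40.3 TPM in replicate 1 and 49.0 TPM in replicate 2. Shank1, a scaffold of excitatory synapses, was at 31.02 TPM in replicate 1 and 29.5 TPM in replicate 2. Mdga2, which blocks the binding of neuroligins to neurexins, was at 28.9 TPM in replicate 1 and 30.7 TPM in replicate 2. This group had the lowest median of the 6 roles, 19.9 TPM.

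Of 7 intracellular partners of neurexins, 6 reached 10 TPM, led by Lin7c at 221 TPM in replicate 1 and 214 TPM in replicate 2. Syt1, the calcium sensor of vesicle release, was at 118 TPM in replicate 1 and 122 TPM in replicate 2, and Cask, a kinase-like scaffold that binds the neurexin tail, at 59.1 TPM in replicate 1 and 62.0 TPM in replicate 2. The 7 heparan sulphate proteins and receptor tyrosine phosphatases had 6 members at 10 TPM or more. Ptprs, a presynaptic phosphatase, was at 189 TPM in replicate 1 and 185 TPM in replicate 2, Sdc3 at 159 TPM in replicate 1 and 171 TPM in replicate 2, and Ptprd at 77.4 TPM in replicate 1 and 71.2 TPM in replicate 2. Both groups thus held genes well above the neurexins themselves.

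Of 19 other synaptic organisers with leucine-rich repeats, latrophilins and teneurins, 15 reached 10 TPM. The latrophilin gene Adgrl2 was at 74.64 TPM in replicate 1 and 74.61 TPM in replicate 2, and the teneurin gene Tenm2 at 76.6 TPM in replicate 1 and 64.0 TPM in replicate 2. Adgrl3 was at 54.7 TPM in replicate 1 and 53.0 TPM in replicate 2. Adgrl2 and Tenm2 stood near the level of Nlgn3, and the other 16 genes of the group had means from 4.93 to 48.3 TPM.

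All 5 genes of neurexin splicing and cleavage reached 10 TPM. Khdrbs1 (Sam68), one of the RNA-binding proteins that promote skipping of the splice site 4 exon, was at 112 TPM in replicate 1 and 96.5 TPM in replicate 2. Khdrbs2 was at 53.4 TPM in replicate 1 and 48.5 TPM in replicate 2. Both were higher in replicate 1.

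**Figure D4:**
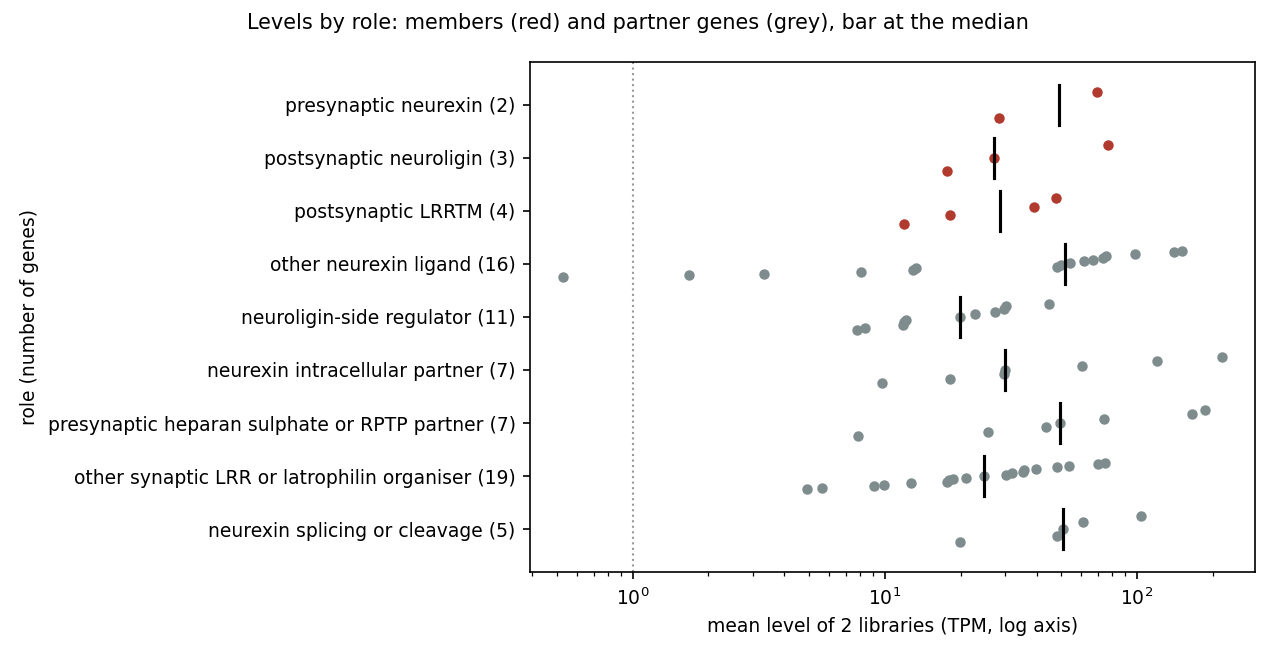
Mean TPM over the 2 libraries (log axis) of the members (red) and of 65 partner genes (grey) by role, with a black bar at each median and a dotted line at 1 TPM. All 9 members lie between 11.9 and 76.7 TPM, and Nxph2 is the only gene left of the line.

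The tissue and cell content of the pools bears on these levels. Of 7 genes listed for midbrain, 6 reached 1 TPM in both libraries, against 62.1% of all protein-coding genes. Slc17a6 was highest at 99.6 TPM in replicate 1 and 109 TPM in replicate 2. Gata3 followed at 71.4 TPM in replicate 1 and 77.2 TPM in replicate 2. En1 was lower, at 4.99 TPM in replicate 1 and 6.34 TPM in replicate 2, and En2 was below 1 TPM in both. Of 8 genes of other brain regions 3 reached 1 TPM, with Neurod6 highest at 11.4 TPM in replicate 1 and 15.2 TPM in replicate 2. Neuron genes were all above 10 TPM, against 41.2% of all protein-coding genes. All 6 microglia genes, all 6 endothelial genes and all 8 oligodendrocyte-lineage genes reached 1 TPM. Which cells carried the adhesion genes was not measured.

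Between the pools the members differed little. The log2 ratio of scaled expected counts, replicate 1 minus replicate 2, ran from -0.25 for Lrrtm3 to 0.08 for Lrrtm2, with a median of -0.11 against -0.01 over 14412 genes with a mean count of at least 50. None of the 9 was past 2-fold, against 0.645% of those genes, and none was past 1.5-fold, against 3.44%. The median size of the difference was 0.114 over the members and 0.118 over all those genes.

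Lrrtm3 had scaled counts of 2032 in replicate 1 and 2409 in replicate 2, a 1.19-fold difference with a 95% counting interval of the log2 ratio from -0.33 to -0.16. Nrxn2 followed at log2 -0.20, from 1244 in replicate 1 and 1431 in replicate 2, and Lrrtm1 at -0.19, from 2244 in replicate 1 and 2564 in replicate 2. Counting intervals left out 0 for Nrxn2, Nrxn3, Nlgn1, Nlgn3, Lrrtm1 and Lrrtm3 and included it for Nlgn2, Lrrtm2 and Lrrtm4. These intervals cover counting error only, with no spread between animals. In 8 of 9 members the value was lower in replicate 1, against 51.9% of the genes, and the members share the libraries, so they are not independent of each other.

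The pools also differed in the levels of cell type genes, and cell content itself was not measured. Astrocyte genes were lower in replicate 1 in 9 of 10, with a median log2 ratio of -0.73. Slc1a2 went the other way, at 16.4 TPM in replicate 1 and 12.1 TPM in replicate 2. Their summed levels were 760 TPM in replicate 1 and 1203 TPM in replicate 2. The highest astrocyte gene alone was at 296 TPM in replicate 1 and 566 TPM in replicate 2, so it weighed heavily on these sums. Gfap was near 0 in both (0.230 and 1.02 TPM). Genes of dividing cells were higher in replicate 1 in 10 of 10, with a median of 0.35 and sums of 307 TPM in replicate 1 and 249 TPM in replicate 2. Neuron genes had a median of -0.04, with 5 of 10 higher in replicate 1 and sums of 5776 TPM in replicate 1 and 5861 TPM in replicate 2. Oligodendrocyte-lineage genes had a median of -0.28, with 1 of 8 higher in replicate 1 and sums of 176 TPM in replicate 1 and 217 TPM in replicate 2. Microglia genes had a median of -0.16, with 1 of 6 higher in replicate 1 and sums of 79.9 TPM in replicate 1 and 98.7 TPM in replicate 2. Endothelial genes had a median of 0.08, with 4 of 6 higher in replicate 1. The part of these shifts in the members' ratios was not tested.

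**Figure D5:**
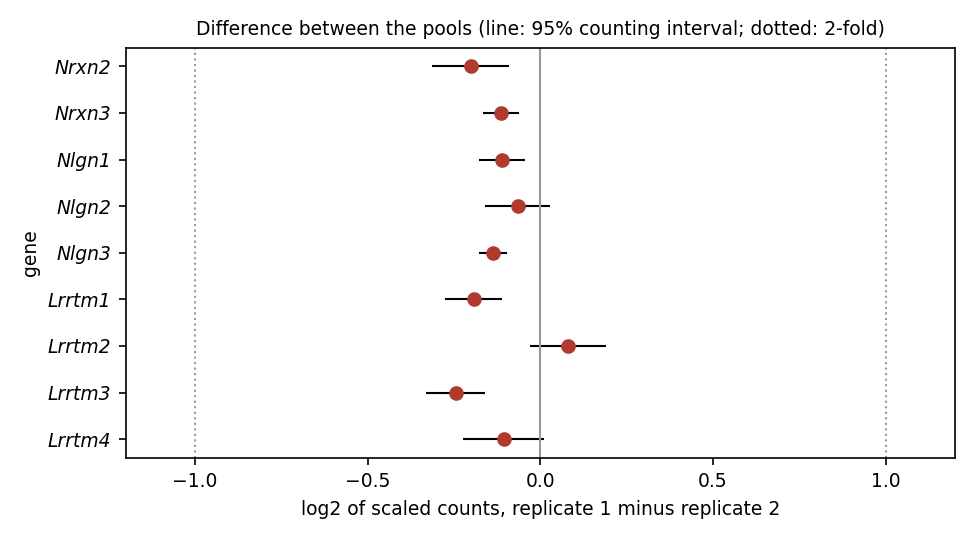
Log2 ratio of scaled expected counts, replicate 1 minus replicate 2, for each member (points) with the 95% counting interval (lines), and dotted lines at 2-fold. All 9 points lie between -0.25 and 0.08, far inside the dotted lines.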

How the data were processed

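The deposited gene and transcript tables of both libraries were used. Per the deposited readme, reads were aligned to mm10 and quantified against GENCODE M4. Which aligner and quantifier were run is not given in the sources used here. Per the file headers, expected counts are the authors' estimated reads per feature, not normalized. Per the file headers, deposited TPM is corrected for effective length, and the isoform share is the transcript's percent of its gene's TPM. Deposited FPKM columns were not used for results, and credibility bounds were used only for single transcripts of Nrxn2 and Nlgn3. The level of these bounds is not stated in the sources used here. Replicate 1 held 31830355 expected counts and replicate 2 held 36576263.

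Symbols, transcript types and exons came from GENCODE M21 (GRCm38, the same assembly), joined by Ensembl identifier without version. Pool ratios used expected counts with 0.5 added and TMM factors from edgeR 4.0.16 on rounded counts, with size factors from DESeq2 1.42.0 as an alternative. Simulated counts served to test the rule for 2-fold differences. Intervals are exact and at 95%.

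The members and lists were chosen with earlier results of these data known. Named were all members, their leading transcripts and coding transcripts at 5% or more in both libraries, and per partner role the 3 highest genes and any below 1 TPM. A gene that this rule takes and an exon sequence are not reported here. Named after their values were seen were Nrxn3-204, Nrxn2-201, Nrxn2-205, Nlgn3-202, Lrrtm1-201, Gfap and Slc1a2. Calculations ran in Python 3.11.15 and R 4.3.3.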

Additional observations from a re-analysis of the deposited data

How the results depend on the processing

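All 9 members stayed at 1 TPM or more in both libraries, and none passed 2-fold between the pools, under every setting tried, and the median pool ratio stayed between log2 -0.12 and -0.08. The ratios between families and of Nrxn3 over Nrxn2 kept their direction but moved with the scale. With protein-coding transcripts only, the median of the members was 18.2 TPM, neuroligins over Nrxn2 and Nrxn3 log2 1.19, neuroligins over LRRTMs 0.48 and Nrxn3 over Nrxn2 1.85. With expected counts, which are not corrected for length, these ratios were 1.07, 1.08 and 2.13. Over protein-coding transcripts alone the long-form share was 47.0% in Nrxn3 and 46.5% in Nrxn2, and as a share of expected counts, a setting added after seeing the data, 48.7% and 48.5%. Dividing the forms by start site, also added later, gave 21.1% in Nrxn2 against 18.9% for its short forms, which turns their order. The order of long and short forms also turned in both genes with expected counts, to log2 1.03 in Nrxn3 and 0.81 in Nrxn2.

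With 1 library at a time, the median of the members ranged from 25.7 to 31.5 TPM, neuroligins over Nrxn2 and Nrxn3 from log2 0.27 to 0.36, neuroligins over LRRTMs from 0.02 to 0.10 and Nrxn3 over Nrxn2 from 1.18 to 1.41. The long-form share ranged from 26.7% to 28.1% in Nrxn3 and from 17.8% to 19.3% in Nrxn2, and the count of members at 1 TPM was 9 in each. Levels of 5 of 9 members moved by more than the spread between libraries with protein-coding transcripts only and 2 of 9 with posterior mean TPM. No paired analysis was possible because there is 1 group. Short transcripts rested on few reads, and Nrxn2-213 carried this into the TPM of Nrxn2.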
